A study of Schizosaccharomyces pombe with 15 samples.

Results

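This account covers the 89 coding genes of fission yeast (Schizosaccharomyces pombe) whose start-site tags were at least 2 times higher in nitrogen starvation, in heat shock and after H2O2 alike. They were found among 4931 coding rows of a table of 5886 genes, with rows of noncoding, small nucleolar and small nuclear RNAs left out. A gene was kept when the mean over 3 libraries, in CPM, the tags of a gene scaled to a common library total, was at least 2 times its own-medium control in each of the 3 stresses and reached 5 CPM in each. Those 3 folds selected the genes, so they are given below as a description, and no support is taken from calls on them. The starvation criterion was met by 1351 coding rows, the heat criterion by 330, the H2O2 criterion by 239 and both short-stress criteria by 141, of which 89 also met the starvation criterion.

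The measurement was CAGE (cap analysis of gene expression): RNA is captured by its 5′ cap and short tags are read from that end, and a tag thus marks a transcription start site (TSS). All came from 1 wild-type strain, h-S 972, and each of the 5 groups held 3 cultures. Unstressed cultures grew at 30 °C in EMM, a defined minimal medium, or in YES, a rich yeast-extract medium. Starved cells were moved from EMM2 to the same medium lacking ammonium chloride and kept there for 16 h at 30 °C. Heat-shocked cells were moved to 39 °C for 15 min, and oxidatively stressed cells received 0.5 mM H2O2 for 15 min at 30 °C. For the heat and H2O2 cultures the labels give YES as medium while the treatment text says YEL, and the YES libraries served as control. Starvation therefore differs from the short stresses in medium, in length and in the filtration step of starved cells, and these cannot be told apart.

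In fission yeast a common set of genes answers many kinds of stress, the core environmental stress response. Its best known regulator is Sty1, a mitogen-activated protein kinase (MAPK) related to p38, which acts through the bZIP transcription factors Atf1 and Pcr1. These bind as a dimer to ATF/CREB sites, whose core is TGACGT. Products of the response include catalase, enzymes of trehalose metabolism, oxidoreductases and chaperones, and heat shock factor controls a separate set of chaperone genes through repeats of GAA and TTC.

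Library totals ran from 9665353 to 21760682 tags, so that 3 tags, taken as the detection floor, were worth 0.138 to 0.310 CPM. Tags of the 89 genes made up 0.325% to 0.342% of an EMM library and 1.55% to 2.11% of a starved one. They made up 0.380% to 0.400% of a YES library, 1.80% to 2.11% of an H2O2 library and 4.04% to 4.28% of a heat library. Without ssa1, the most abundant of them after heat, the heat range was 3.34% to 3.57%. A CAGE level is a share of the tags of a library, so less RNA per cell and a smaller share cannot be told apart.

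Of the 89 genes, 88 are annotated as protein-coding and 1 (SPAC977.13c) as a pseudogene, 53 have a symbol, and 16 are annotated only as an uncharacterized protein. They lay on chromosome I (45), II (25) and III (19). The genes just inside the rule had smallest folds of 2.01 (sdj1), 2.03 (nnr2), 2.05 (SPACUNK4.15), 2.06 (SPAC4H3.04c) and 2.07 (pcr1). Those just outside were glo2 at 1.98, and atg4, tms1, SPCC24B10.02c and SPAC16A10.01, all at 1.97. A further 34 coding rows passed the 3 folds but missed 5 CPM in a stress, such as SPBPB21E7.02c, with a smallest fold of 20.2 and a lowest stress level of 3.71 CPM.

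ATF/CREB cores stood in the promoters of many of these genes, most often about 60 bp before the main start site. TGACGT, searched on both strands in the 250 bases before the annotated start, was present in 30 of the 89 genes (33.7%, 95% Wilson interval 24.7% to 44.0%) and in 275 of 4921 coding genes (5.59%). Counted from the CAGE peak of the main TSS, a window chosen after seeing the data, it was present in 35 of 89 (39.3%) and in 298 of 4922 (6.05%). The related palindrome TTACGTAA was present before the peak in 5 of 89 (5.62%) and in 26 of 4922 (0.528%), the 5 genes being mag2, tgd1, SPCPB16A4.06c, SPBC24C6.09c and SPAC13C5.04. The main peak of tgd1 lies inside its coding region, and its match, 51 bp before that peak, is in coding sequence too. In all, 40 of 89 (44.9%) held TGACGT or TTACGTAA, against 321 of 4922 (6.52%).

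The promoter search used sequence only, and the rule used none, but a match is a description of letters and not a site. The 160 bases shown here run from 150 before the main CAGE peak to 10 from it, 5′ to 3′ on the strand of the gene. They were read from the reference assembly ASM294v3 at the coordinates of the deposited clusters, and capitals mark TGACGT, its reverse complement ACGTCA, or TTACGTAA. They were chosen to show the palindrome of the gene for Atf1 itself, several cores in 1 promoter (srk1, rsv2), the usual position (ctt1, gst3, tsp0), and the other palindrome (mag2). The ssa1 promoter, at its main peak, is shown as one with none of these cores. Another start site of ssa1, with its peak at chrI:2298256, has a TGACGT within 150 bases before it.

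The promoters are listed by gene.
atf1 (chrII:1546068-1546227, plus strand): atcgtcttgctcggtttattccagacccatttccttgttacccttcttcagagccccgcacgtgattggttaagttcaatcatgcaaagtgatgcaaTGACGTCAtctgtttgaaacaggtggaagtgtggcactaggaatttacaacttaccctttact
srk1 (chrIII:1301787-1301946, plus strand): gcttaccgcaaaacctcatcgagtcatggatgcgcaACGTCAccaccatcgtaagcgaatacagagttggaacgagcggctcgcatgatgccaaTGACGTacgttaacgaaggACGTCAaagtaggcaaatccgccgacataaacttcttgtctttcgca
rsv2 (chrII:3532781-3532940, plus strand): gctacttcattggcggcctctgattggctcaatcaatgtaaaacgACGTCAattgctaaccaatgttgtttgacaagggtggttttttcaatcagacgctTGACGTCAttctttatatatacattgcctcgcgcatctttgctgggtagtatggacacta
ctt1 (chrIII:58824-58983, minus strand): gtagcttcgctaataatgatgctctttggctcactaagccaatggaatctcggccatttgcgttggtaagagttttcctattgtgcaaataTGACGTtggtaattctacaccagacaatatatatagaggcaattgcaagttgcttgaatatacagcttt
gst3 (chrI:3116863-3117022, minus strand): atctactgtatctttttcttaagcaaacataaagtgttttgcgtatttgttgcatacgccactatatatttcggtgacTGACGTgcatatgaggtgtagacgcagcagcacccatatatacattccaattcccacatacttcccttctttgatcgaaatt
tsp0 (chrII:1224403-1224562, plus strand): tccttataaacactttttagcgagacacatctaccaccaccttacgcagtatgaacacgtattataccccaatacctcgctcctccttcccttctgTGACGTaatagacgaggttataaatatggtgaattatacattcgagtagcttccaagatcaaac
mag2 (chrII:2120107-2120266, plus strand): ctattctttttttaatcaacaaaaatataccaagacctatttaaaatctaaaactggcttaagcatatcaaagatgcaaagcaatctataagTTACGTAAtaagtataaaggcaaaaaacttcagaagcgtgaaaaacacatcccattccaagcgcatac
ssa1 (chrI:2297955-2298114, minus strand): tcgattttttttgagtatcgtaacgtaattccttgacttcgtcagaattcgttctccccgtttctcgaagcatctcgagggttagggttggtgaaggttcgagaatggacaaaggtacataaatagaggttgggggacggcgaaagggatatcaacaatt

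In atf1 and in rsv2 the capitals spell TGACGTCA, which reads the same on both strands and was counted as 2 overlapping matches. The cores of ctt1, gst3 and tsp0 were centred 56, 69 and 51 bp before the peak. Over all 89 genes, 20 (22.5%) had a TGACGT centred 50 to 75 bp before the peak, against 85 of 4922 coding genes (1.73%), and the median distance of the 44 matches was 61 bp. The share in that bin was 9.62% for genes that met only the heat and H2O2 criteria. It was 5.06% for starvation and heat and 4.44% for starvation and H2O2. That bin was also the fullest of the 25 bp bins over all coding genes, so the position is not particular to the 89. With overlapping matches counted as 1 place, TGACGT stood in 2 or more places in 5 of the 89 genes (5.62%: mug143, SPAC22A12.17c, rsv2, lsd90 and srk1), against 10 of 4922 (0.203%).

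Of the other motifs searched, the heat shock element core GAANNTTC stood before 9 of 89 peaks (10.1%) and 9.31% of coding peaks, and the TATA-box word TATAAA before 34 (38.2%) and 43.7%. Within 25 to 50 bp of the peak, where a TATA box lies in many species, TATAAA was found in 17 of 89 (19.1%) and in 8.53% of coding genes, but also in 13 of 52 genes that met the heat and H2O2 criteria, 9 of 45 for starvation and H2O2, and 19.2% of those for H2O2 only. None of these shares was tested, and 25 of the 89 genes (28.1%) held none of the 4 motifs.

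The share with TGACGT differed between genes that met fewer of the 3 criteria. Before the CAGE peak it was 4.28% in coding genes that met none, 6.26% in those that met only the starvation criterion, 12.7% for heat only and 7.69% for H2O2 only. It was 13.9% for starvation and heat, 11.1% for starvation and H2O2, and 26.9% for heat and H2O2, beside 39.3% for all 3. Among the 89, the genes with and without the core had median folds of 3.96 and 5.20 in starvation, 5.58 and 5.46 in heat, and 3.55 and 3.53 after H2O2, over 35 and 54 genes. The 89 were chosen on those folds, and the difference was not tested.

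**Figure D1:**
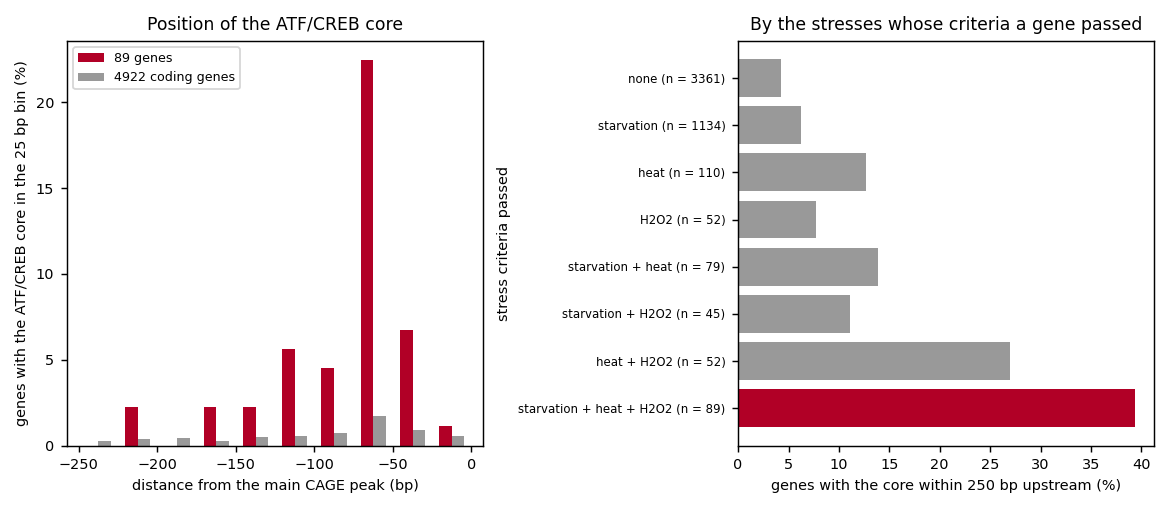
Left, percentage of genes (y axis) with the ATF/CREB core centred in each 25 bp bin before the main CAGE peak (x axis, bp), for the 89 genes (red) and 4922 coding genes (grey). Right, percentage of genes with the core within 250 bp before the peak, by the stress criteria they met (n in the labels): the share is 22.5% in the bin 50 to 75 bp upstream of the 89 genes and 39.3% in their whole window.

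The size of the response differed widely within the set. The median fold was 4.93 in starvation, with a range of 2.03 to 247, 5.48 in heat, with a range of 2.06 to 52.9, and 3.55 after H2O2, with a range of 2.01 to 38.1. The largest of the 3 folds was that of starvation in 40 genes, of heat in 39 and of H2O2 in 10, and the smallest was that of H2O2 in 48, of starvation in 30 and of heat in 11. The smallest fold reached 3 in 40 genes, 4 in 18 and 5 in 14. In 86 of the 89 genes every stressed library lay above every control library in all 3 stresses. The other 3 (SPCC338.18, SPACUNK4.15 and atg20) overlapped after H2O2. The rule chose the genes on these same comparisons, and the share over all genes was not counted, so nothing is read from this count.

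In the fit across all genes (edgeR, adjusted p under 0.05), 88 of the 89 were higher in starvation than in EMM, 88 were higher in heat than in YES and 84 were higher after H2O2 than in YES. Of all 5886 genes, 35.7%, 22.2% and 11.3% were called higher in these comparisons, and 32.9%, 20.1% and 8.78% lower. As the same comparisons chose the genes, nothing is read from those counts.

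**Figure D2:**
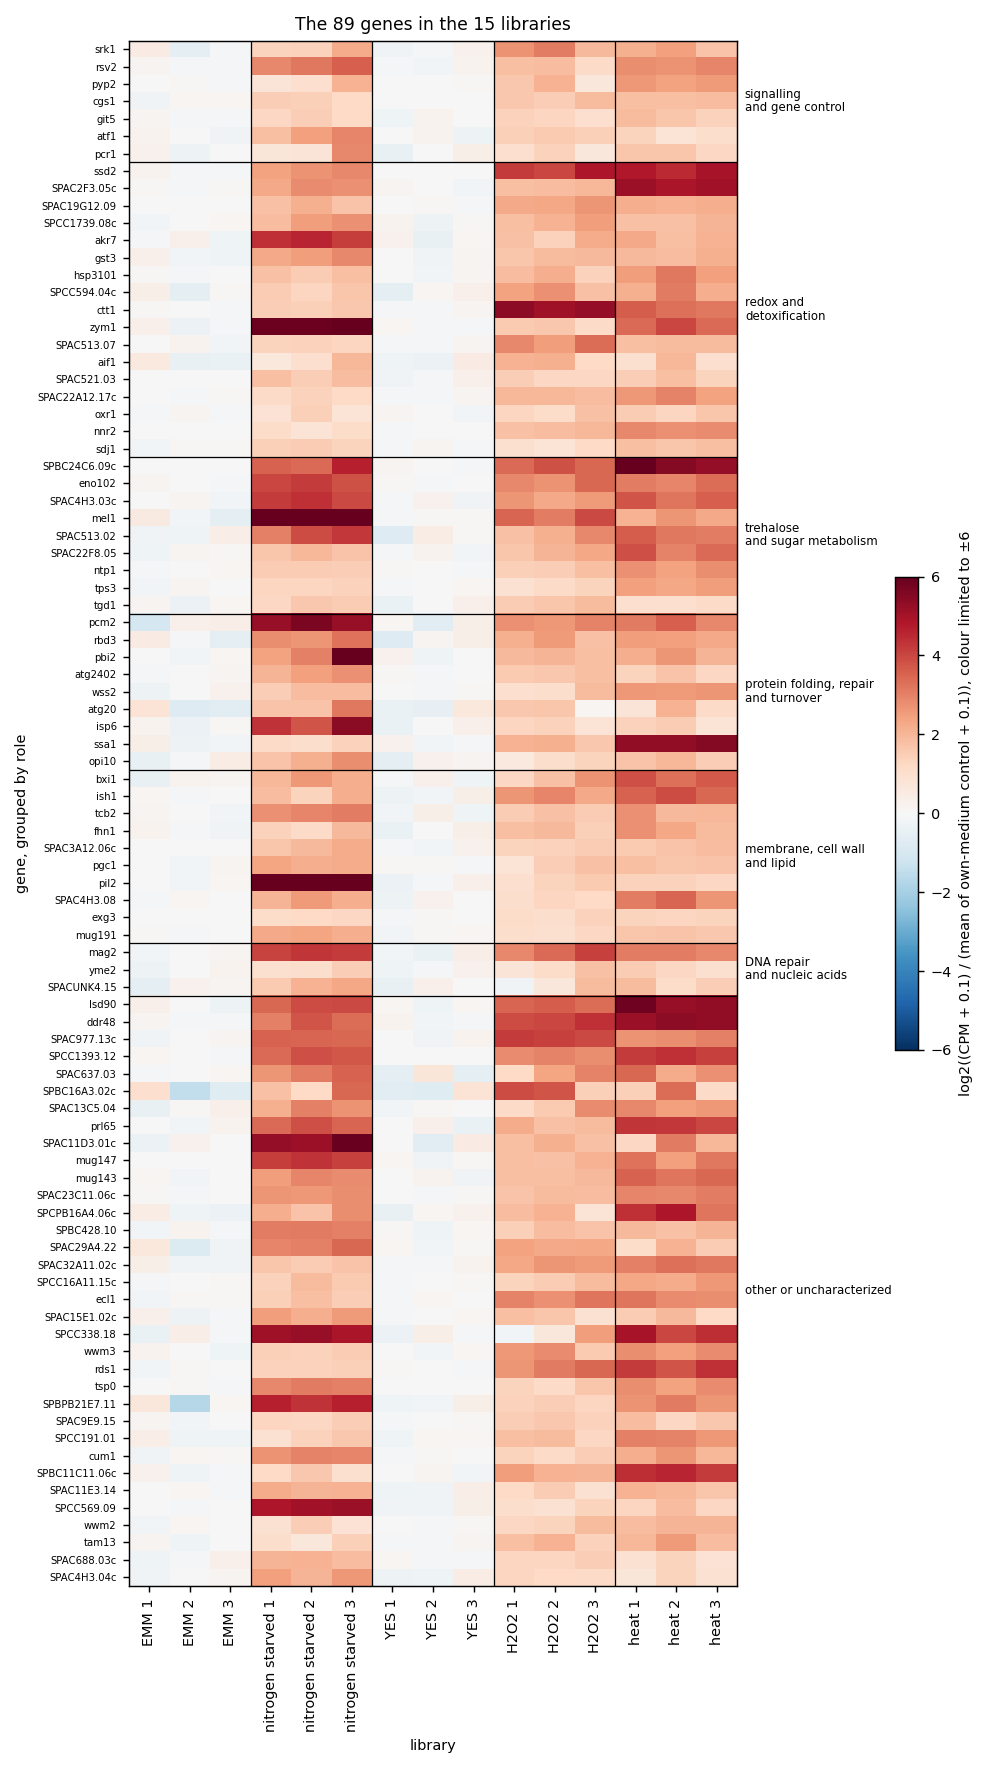
Colours give log2((CPM + 0.1) / (mean of the own-medium control + 0.1)) for each of the 89 genes (vertical axis, by role) in each of the 15 libraries (horizontal axis), limited to ±6. The stressed libraries are red in nearly all genes, since these folds selected the genes, and depth of colour differs between stresses within a gene.

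Signalling and gene control supplied 7 genes, with median folds of 3.27 in starvation, 3.51 in heat and 3.03 after H2O2. TGACGT stood before the main peak of 6 of the 7, all but pcr1. Another start site of pcr1, with its peak at chrI:4253278, has a TGACGT within 150 bases before it. atf1 (SPBC29B5.01), which encodes the transcription factor downstream of Sty1, stood at 118, 104 and 88.8 CPM in EMM and at 359, 564 and 779 CPM after starvation. The YES libraries gave 131, 149.5 and 103 CPM, the heat libraries 326, 224 and 269.6 CPM and the H2O2 libraries 341, 378 and 349.7 CPM. In CPM by library totals, its starved libraries lay above all others with 1 exception, since the lowest starved value was inside the range of the H2O2 values. Its heat libraries lay below its H2O2 libraries in CPM. In the fit across all genes that log2 difference, heat minus H2O2, was −0.19 ± 0.24 (SE) and did not pass the test (adjusted p = 0.601, edgeR).

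pcr1, for the partner of Atf1, stood at 18.1, 12.1 and 14.9 CPM in EMM and at 24.8, 25.5 and 113 CPM after starvation. Its level was 15.3, 21.2 and 26.9 CPM in YES, 68.2, 67.8 and 50.6 CPM after heat and 42.9, 54.5 and 33.9 CPM after H2O2. The third starved library alone was several times above its 2 companions, and without it the starvation fold was 1.67 in place of 3.63, under the limit of the rule. After H2O2 its log2 change was 1.04 ± 0.44 (SE) and did not pass the test (adjusted p = 0.119, edgeR). Its H2O2 fold of 2.07 was 1.81 without the second H2O2 library and 1.82 without the first YES library, also under the limit.

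srk1, for a kinase that Sty1 activates, stood at 118, 59.4 and 77.7 CPM in EMM and at 217, 222 and 397 CPM after starvation. In YES it stood at 92.6, 99.3 and 129.9 CPM, after heat at 473, 597 and 354 CPM and after H2O2 at 701, 888 and 410.0 CPM. Its H2O2 and heat libraries overlapped, and both were above starvation in mean (folds of 3.27, 4.42 and 6.21 in starvation, heat and H2O2). pyp2, for a tyrosine phosphatase that switches Sty1 off, was lower in level, at 4.08 ± 0.144 CPM in YES, 23.8 ± 1.49 CPM after heat and 12.4 ± 5.63 CPM after H2O2 (mean ± SD, n = 3). Its tags moved between start sites, as described further on.

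rsv2, for a zinc-finger transcription factor, stood at 73.5 ± 6.73 CPM in EMM and 695 ± 176 CPM in starvation, and at 107 ± 15.8 CPM in YES and 753 ± 54.2 CPM in heat (mean ± SD, n = 3). cgs1 encodes the regulatory subunit of cAMP-dependent protein kinase, and git5 the beta subunit of a heterotrimeric G protein of the same glucose-sensing pathway. Their folds lay between 2.38 and 3.51 in all 3 stresses.

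Among the 17 genes of redox chemistry, detoxification and aldehyde or ketone reduction, the medians were 3.25 in starvation, 4.45 in heat and 3.69 after H2O2. ctt1, for catalase, which breaks down H2O2, stood at 35.8, 33.4 and 32.9 CPM in EMM and at 95.7, 93.2 and 105 CPM after starvation. The YES libraries gave 45.9, 45.5 and 53.9 CPM, the heat libraries 595, 477 and 435 CPM and the H2O2 libraries 1994, 1665 and 1882 CPM. The H2O2 libraries lay well above the heat libraries, and starvation stayed far below both.

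zym1, for a metallothionein that binds zinc, had another order. It stood at 19.9, 12.4 and 15.2 CPM in EMM and at 938, 937 and 1198 CPM after starvation. Its level was 44.9, 39.2 and 39.3 CPM in YES, 428, 668 and 428 CPM after heat and 123, 127 and 92.7 CPM after H2O2. In CPM by library totals, starved libraries were highest and H2O2 libraries lowest of the 3 stresses, with no overlap. How starvation and heat compare under another scaling was not tested. gst3, for a glutathione S-transferase, had folds of 6.01, 3.96 and 3.57 in starvation, heat and H2O2.

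ssd2, for succinate-semialdehyde dehydrogenase, had folds of 27.0 in heat and 21.2 after H2O2 but 6.54 in starvation. SPAC2F3.05c, annotated as a xylose and arabinose reductase, stood at 184, 153 and 172 CPM after heat against 18.4, 18.5 and 20.6 CPM after H2O2 and 5.69, 5.11 and 4.56 CPM in YES. SPAC513.07, annotated in the flavonol and cinnamoyl-CoA reductase family, leaned the other way, with 664, 516 and 923 CPM after H2O2 and 314, 339 and 338 CPM after heat. hsp3101 and sdj1, both annotated as glyoxylase III, had heat folds of 6.81 and 3.40.

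The 9 genes of trehalose and sugar metabolism had the highest medians of the role groups in each stress, 14.1 in starvation, 8.77 in heat and 5.09 after H2O2. SPBC24C6.09c, annotated in the phosphoketolase family, had the largest smallest fold of the 89. It stood at 5.51, 5.35 and 5.71 CPM in EMM and at 65.5, 59.4 and 141 CPM after starvation. In YES it stood at 8.07, 7.23 and 6.63 CPM, after heat at 533, 339 and 288 CPM and after H2O2 at 78.8, 106 and 81.7 CPM. Its folds were 16.0, 52.9 and 12.2 in starvation, heat and H2O2, and the heat libraries stood above all the rest.

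ntp1, for neutral trehalase, which splits trehalose, had folds of 2.87, 6.32 and 3.01. The 2 genes annotated as alpha,alpha-trehalose-phosphate synthase, tps3 and SPAC22F8.05, had 2.51 and 3.50 in starvation, 5.43 and 11.1 in heat, and 2.20 and 4.11 after H2O2. mel1, for melibiase, was near the floor in EMM at 0.332, 0.165 and 0.0967 CPM, and stood at 28.2, 26.4 and 23.1 CPM in starvation and 15.2, 11.4 and 21.2 CPM after H2O2. The starvation fold of 131 rests on those few EMM tags and was 198 without the first EMM library. SPAC4H3.03c, annotated as glucan 1,4-alpha-glucosidase, had folds of 20.9, 12.2 and 5.92. eno102, annotated as an enolase, had folds of 17.2, 8.77 and 8.29.

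Protein folding, repair and turnover held 9 genes. ssa1, for a cytosolic Hsp70 chaperone, stood at 102, 63.6 and 70.9 CPM in EMM and at 175, 162 and 204 CPM after starvation. The YES libraries gave 211, 158 and 161 CPM, the heat libraries 7148, 6979 and 8132 CPM and the H2O2 libraries 743, 788 and 544 CPM. The heat libraries were about an order of magnitude above the H2O2 libraries, and the starved libraries overlapped the YES libraries. pcm2, for a methyltransferase that repairs damaged aspartyl residues in proteins, had folds of 51.8, 9.88 and 7.24.

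isp6, for a vacuolar serine protease, stood at 90.3, 61.3 and 81.5 CPM in EMM and at 1576, 1079.6 and 3326 CPM after starvation. Its level was 20.7, 27.2 and 33.7 CPM in YES, 72.1, 77.7 and 48.3 CPM after heat and 66.3, 71.8 and 48.9 CPM after H2O2. It was highest in the starved libraries, with no overlap. pbi2, for an inhibitor of such a protease, stood at 7.67, 11.9 and 245 CPM in starvation, where the third library was far above the others. Its starvation fold was 65.1 with that library and 7.22 without it. atg20, for a sorting nexin of autophagy, varied within each group, from 15.1, 4.85 and 5.32 CPM in EMM to 27.5, 27.8 and 77.6 CPM in starvation, and overlapped after H2O2.

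The 10 genes of membrane, cell wall and lipid included pil2 and fhn1, for proteins of eisosomes, which are plasma membrane furrows. pil2 stood at 2.79, 2.54 and 3.10 CPM in EMM and at 553, 549.8 and 974 CPM after starvation. In YES it stood at 3.21, 3.97 and 5.20 CPM, after heat at 10.9, 11.0 and 9.82 CPM and after H2O2 at 8.34, 10.7 and 12.6 CPM. Its starvation fold of 247 was the largest of the 89, beside 2.57 in heat and 2.56 after H2O2. fhn1 had folds of 2.88, 5.13 and 3.33, and ish1, for a nuclear envelope protein, 3.60, 12.7 and 6.32. exg3, for a glucosidase, kept between 2.28 and 2.53 in all 3.

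Of 3 genes for DNA repair and nucleic acids, mag2, for a DNA-3-methyladenine glycosylase that removes alkylated bases, had folds of 18.9, 8.36 and 12.2. The remaining 34 genes have other or unknown functions and include some of the most abundant of the 89. ddr48 stood at 34.3, 28.7 and 27.4 CPM in EMM and at 243, 409 and 307 CPM after starvation. The YES libraries gave 130.1, 98.6 and 105 CPM, the heat libraries 3998, 4541 and 4476 CPM and the H2O2 libraries 1662, 1787 and 2329.6 CPM. Heat libraries exceeded H2O2 libraries, and these exceeded starved ones, with no overlap.

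rds1 reached 5989 ± 1248 CPM in heat and SPBC11C11.06c, an uncharacterized protein, 6782 ± 834 CPM, from 339 ± 14.9 and 322 ± 36.0 CPM in YES (mean ± SD, n = 3). tsp0, for a TspO-like protein, was highest in heat (2813 ± 447 CPM) and in starvation (2614 ± 209.9 CPM). wwm2 stood at 914 ± 77.7 CPM in heat. lsd90 had folds of 14.1, 44.9 and 11.4, SPCC1393.12 13.0, 19.0 and 7.29, and the pseudogene SPAC977.13c 11.9, 8.18 and 19.5.

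Some values rested on 1 library. A fold moved by over 1.5 times when 1 library was left out in 12 of the 89 genes, and 19 had a fold under 2 without some library. SPBC16A3.02c varied widely, with 18.9, 3.31 and 5.61 CPM in EMM, 31.9, 21.3 and 101 CPM in starvation, 5.28, 5.11 and 14.9 CPM in YES, 22.7, 87.0 and 18.6 CPM after heat and 130.3, 118 and 23.2 CPM after H2O2. Its starvation fold of 5.56 became 2.87 or 11.5 when 1 library was left out, its heat fold of 5.07 became 2.45 or 8.23, and its H2O2 fold of 10.7 became 17.4. The third H2O2 library decided SPCC338.18 and SPACUNK4.15, whose H2O2 folds were 2.77 and 2.05 with it and 1.25 and 1.23 without it. For atg20 the starvation fold of 5.25 was 3.28 without the third starved library and 8.71 without the first EMM library. The heat fold of SPAC11D3.01c was 5.11, and 3.20 without the second heat library. The H2O2 fold of SPAC13C5.04 was 4.16, and 2.61 without the third H2O2 library. The starvation fold of isp6 was 25.7, and 17.1 without the third starved library, and that of SPBPB21E7.11 was 27.7, and 43.4 without the first EMM library. The heat and H2O2 folds of SPAC637.03 were 7.82 and 5.28, and 12.0 and 8.10 without the second YES library.

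**Figure D3:**
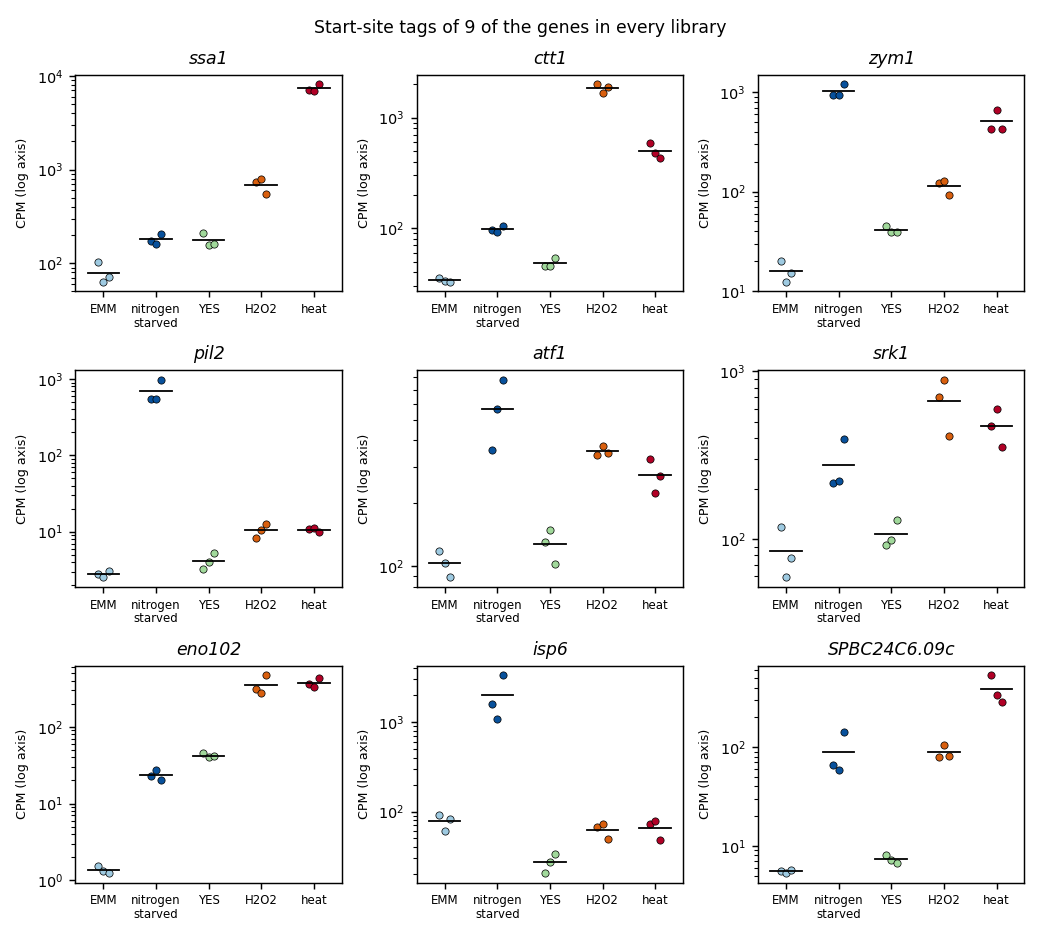
Tags of 9 genes in CPM (y axis, log scale) in each library of the 5 groups (x axis), with points for libraries and bars for group means (n = 3). ssa1 and SPBC24C6.09c are highest after heat, ctt1 after H2O2, and zym1, pil2 and isp6 in starvation.

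The textbook stress pathways held between 0 and 4 of the 89 genes each, beside 89 of 4931 coding rows (1.80%) overall. Lists drawn from general knowledge were counted in the fit across all genes, giving for starvation, heat and H2O2 in turn the genes that rose and those that fell. The shares of all genes were 35.7%, 22.2% and 11.3% for higher and 32.9%, 20.1% and 8.78% for lower. Of 22 genes of the Sty1 pathway, 4 were among the 89 (atf1, pcr1, pyp2, srk1): 17, 7 and 6 rose and 2, 3 and 2 fell. Of 25 antioxidant genes, 3 were (ctt1, gst3, zym1): 9, 12 and 15 rose and 8, 1 and 0 fell. Of 20 chaperone genes only ssa1 was: 2, 18 and 5 rose and 16, 1 and 0 fell. Of 8 genes for trehalose and glycerol, a list without tps3 and SPAC22F8.05, only ntp1 was: 3, 6 and 4 rose and 2, 0 and 0 fell.

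Of 22 autophagy genes, a list without atg2402, atg20 was among the 89, and 17, 13 and 9 rose and none fell. Of 6 vacuolar protease genes isp6 was, and 6, 3 and 3 rose and none fell. Of 18 DNA repair genes mag2 was, with 7, 6 and 2 risen and 3, 1 and 0 fallen. None of the 89 stood in the lists for ubiquitin and the proteasome (23 genes, of which 1, 12 and 3 rose and 17, 0 and 0 fell), meiosis and mating (14 genes, of which 13, 3 and 2 rose and 0, 3 and 3 fell), phosphate and metal uptake (11 genes, of which 4, 1 and 1 rose and 3, 8 and 3 fell) or ribosome biogenesis (12 genes, of which 0, 0 and 0 rose and 9, 11 and 8 fell at adjusted p under 0.05 in edgeR).

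The starvation and heat counts depend on the scaling. With library totals alone in place of trimmed-mean (TMM) factors, the median log2 change of all genes in starvation moved from 0.04 to 0.49. The genes that fell in starvation were then 9 of 20 for chaperones, 9 of 23 for ubiquitin and the proteasome, 4 of 25 for antioxidants and 7 of 12 for ribosome biogenesis, where 2 rose. In heat the median moved from −0.03 to −0.21, and the Sty1 pathway turned from 7 risen and 3 fallen to 6 and 7 of 22. Under library totals 50.6% of all genes were called higher and 18.7% lower in starvation, and 16.8% and 29.0% in heat. The lists were not tested against these shares.

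Set directly against each other, heat gave more tags than H2O2 for most of the 89 genes that differed. In edgeR's quasi-likelihood test, 50 were higher in heat and 4 were higher after H2O2, 54 in all, beside 27.7% of all genes called, 15.7% higher and 12.0% lower. Their median log2 difference, heat minus H2O2, was 0.69, against −0.00 over all genes, and the heat fold exceeded the H2O2 fold in 71. The rule bounded both folds from below but did not compare them, and how much of the excess over the background comes from that choice was not tested.

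The genes with the largest heat excess were ssa1 (log2 difference 3.62 ± 0.24, SE; adjusted p = 2.19e-08, edgeR), SPAC2F3.05c (3.34 ± 0.17), SPCC338.18 (3.28 ± 0.47), SPCPB16A4.06c (2.82 ± 0.39), prl65 (2.43 ± 0.19) and SPBC11C11.06c (2.36 ± 0.22). The 3 heat libraries of each lay above its 3 H2O2 libraries. prl65 stood at 143, 139 and 118 CPM after heat and 33.4, 24.2 and 26.7 CPM after H2O2, and SPCPB16A4.06c at 38.3, 52.1 and 16.7 and 6.40, 7.58 and 3.13 CPM. SPCC338.18 stood at 86.2, 45.1 and 60.5 CPM after heat and 2.36, 4.37 and 15.7 CPM after H2O2, and without the third H2O2 library its difference was 4.39.

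The 4 genes higher after H2O2 were ctt1 (−1.69 ± 0.13; adjusted p = 1.18e-07, edgeR), SPAC977.13c (−1.05 ± 0.16), SPAC513.07 (−0.89 ± 0.17) and mel1 (adjusted p = 0.00389, edgeR), which stood at 5.69, 8.57 and 6.51 CPM after heat beside the H2O2 values above. By role, 9 of 10 membrane genes, 6 of 9 sugar genes, 8 of 17 redox genes, 3 of 9 folding genes, 3 of 7 signalling genes and 21 of 34 others were higher in heat. The genes higher after H2O2 were 2 redox genes, 1 sugar gene and 1 other. With library totals alone in place of TMM scaling, the median of all genes moved to −0.20 and 44 of the 89 were called, 39 higher and 5 lower, beside 9.72% higher and 21.1% lower over all genes.

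The starvation response differed in size from the short responses in 51 of the 89 genes. For each gene the log2 response to starvation was set against the mean of the log2 responses to heat and H2O2, and the difference was tested in the same fit: 14 genes responded more to starvation and 37 less. Over all genes 58.0% were called, 28.5% higher and 29.5% lower, so the share among the 89 (57.3%) was near the background. The contrast combines the 3 folds that chose the genes, so the counts are a description and nothing is read from them. The split depends on the scaling: with library totals alone, 50 were called, 29 higher and 21 lower (32.6% and 23.6%, beside 46.8% and 15.5% of all genes), and the median of the 89 moved from −0.41 to 0.13 while that of all genes moved from 0.02 to 0.56. Under both scalings the median of the 89 lay below that of all genes. The rule required heat and H2O2 folds of at least 2, so this order is tied to the choice of genes and was not tested.

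Among the genes called, the largest starvation excess was that of pil2 (log2 difference 6.06 ± 0.30, SE; adjusted p = 1.19e-09, edgeR), followed by mel1 (3.47 ± 0.48), SPCC569.09 (3.21 ± 0.24), SPAC11D3.01c (3.05 ± 0.62), zym1 (2.93 ± 0.28) and isp6 (2.89 ± 0.42). pbi2, at 3.24 ± 1.51, did not pass the test (adjusted p = 0.0796, edgeR). SPCC569.09 stood at 3.59, 3.42 and 3.68 CPM in EMM and 106, 119 and 131 CPM in starvation, against 5.48, 5.64 and 8.28 CPM in YES and 16.0, 23.5 and 15.7 CPM in heat. SPAC11D3.01c, a Con-6 family protein, went from 0.398, 0.662 and 0.532 to 24.6, 21.7 and 38.8 CPM in starvation.

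Among the genes called, the lowest differences were those of ctt1 (−3.33 ± 0.18; adjusted p = 2.04e-09, edgeR), ssa1 (−3.02 ± 0.30), rds1 (−2.76 ± 0.27), SPBC11C11.06c (−2.55 ± 0.28), ssd2 (−2.41 ± 0.29) and ecl1 (−1.92 ± 0.20). ecl1, for an extender of chronological lifespan, stood at 43.0, 50.7 and 49.8 CPM in EMM and 129.6, 169.7 and 134 CPM in starvation, and at 16.2, 19.5 and 17.8 CPM in YES and 139.9, 119.7 and 167 CPM after H2O2. All 12 of these genes kept their direction and their call under library totals alone. Counts by role did not hold in this way: under TMM scaling 11 of 17 redox genes responded less and 2 more, and 4 of 7 signalling genes less and 0 more, while under library totals 6 redox genes responded less and 3 more, and 0 signalling genes less and 2 more.

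**Figure D4:**
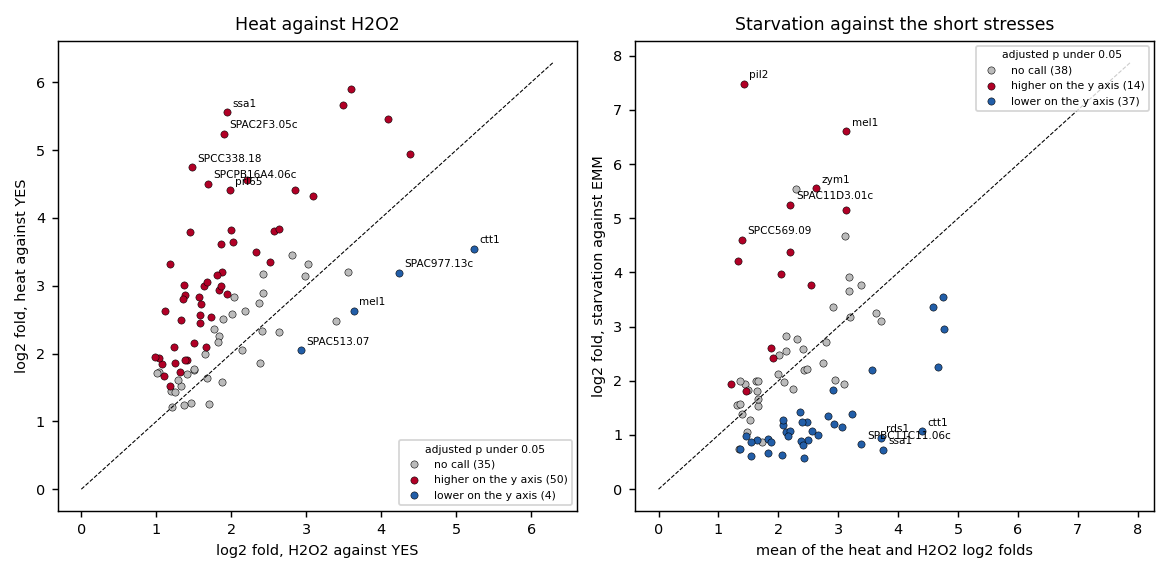
Each point is one of the 89 genes by its fitted log2 folds: left, heat (y axis) against H2O2 (x axis), both over YES. Right, starvation over EMM (y axis) against the mean of the heat and H2O2 log2 folds (x axis). Red and blue mark genes called above and below the dashed line of equal response, 50 and 4 on the left and 14 and 37 on the right, under TMM scaling.

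Before any stress, 32 of the 89 genes already differed between the media, 10 higher in EMM and 22 lower. Over all genes 13.2% were called, 5.95% higher and 7.24% lower. A low control level raises a fold, so both controls of the rule are tied to this comparison, and the part the choice plays was not tested. The median log2 difference of the 89, EMM minus YES, was −0.19.

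Lower in EMM were eno102 (−4.92 ± 0.25, SE; adjusted p = 2.00e-09, edgeR), SPBPB21E7.11 (−4.19 ± 0.35), SPAC11D3.01c (−3.20 ± 0.54), mel1 (−2.68 ± 0.44), SPCC1393.12 (−2.36 ± 0.15) and pcm2 (−1.97 ± 0.40). eno102 stood at 1.53, 1.32 and 1.26 CPM in EMM and 44.9, 39.9 and 41.6 CPM in YES, and its starved libraries, at 23.2, 27.0 and 20.4 CPM, remained below unstressed YES. SPBPB21E7.11 stood at 0.996, 0.110 and 0.629 CPM in EMM, partly under the floor, and at 8.79, 9.26 and 13.5 CPM in YES.

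Higher in EMM were SPAC977.13c (1.68 ± 0.23), isp6 (1.55 ± 0.33), ecl1 (1.46 ± 0.15; adjusted p = 6.55e-06, edgeR), SPAC13C5.04 (1.29 ± 0.34), SPCC1739.08c (1.07 ± 0.24) and tam13 (0.74 ± 0.24). The call of tam13 was lost in 9 of 12 alternatives and that of SPAC13C5.04 in 6 of 12. By role, 5 of 9 sugar genes and 12 of 34 others were lower in EMM. The 7 signalling genes gave no call in either direction.

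Many of the 89 genes start at several places. Among them 26 (29.2%) had 1 TSS, against 44.1% of coding genes, and the median width of the main TSS cluster was 282 bp against 194 bp. Most classes of genes that met some of the criteria lay nearer to the 89 in this than to coding genes as a whole. In them 1 TSS was found in 21.2% for H2O2 only, 26.7% for starvation and H2O2 and 30.4% for starvation and heat. It was found in 36.5% for heat and H2O2 and 37.3% for heat only. Median widths were 304, 312, 240, 307 and 272 bp in the same order. The largest class, starvation only, was near coding genes as a whole, with 40.0% and 193 bp. In 28 of the 89, at least 2 TSSs each held 10% of the tags of the gene in some group, and the shares could be tested. The share of tags per TSS changed in 19 of 28 in starvation, 20 in heat and 16 after H2O2 (edgeR diffSpliceDGE, Simes adjusted p under 0.05), 12 of them in all 3 stresses. Of the 1695 genes tested, 59.4%, 31.8% and 12.0% were called.

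A gene that gains tags through 1 start site also shifts its shares, so this is not independent of the rule. Among other coding genes that met the criterion of the same stress, the shares changed in 68.7% in starvation, 73.8% in heat and 66.0% after H2O2, against 67.9%, 71.4% and 57.1% of the 28. Among coding genes that did not meet it, the shares were 56.0%, 28.8% and 9.35%. By mean shares, and whether or not a change was called, the dominant TSS itself differed in 10, 9 and 8 of the 28. It differed in all 3 stresses in pyp2, whose starvation change was not called, and in cum1, lsd90, mag2 and SPCC569.09. The share over all genes was not counted for this or for the 12 called in all 3 stresses, so nothing is read from these counts.

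pyp2 has a TSS at −799 bp from its coding start and a nearer one at −167 bp. The upstream TSS gave 0.724, 1.32 and 1.86 CPM in YES, 22.8, 20.4 and 23.1 CPM after heat and 11.3, 16.1 and 5.51 CPM after H2O2. The nearer TSS gave 2.69, 1.76 and 1.64 CPM in YES, 0.603, 0.612 and 0.449 CPM after heat and 0.278, 0.643 and 0.373 CPM after H2O2. In both short stresses the upstream site lay above YES and the nearer one below it, with no overlap, and the share of the upstream site went from 31.7% to 92.6% in heat (adjusted p = 9.99e-09, edgeR) and to 87.7% after H2O2. In starvation the shares did not pass the test (adjusted p = 0.102, edgeR), and the third starved library had the highest upstream share. TGACGT stood once within 250 bases before the upstream peak, centred 148 bp from it, and not before the nearer one.

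SPCC569.09 moved in the opposite sense, from a far TSS towards nearer ones. In EMM the TSS at −1245 bp held 81.5, 79.0 and 69.7% of its tags, and in starvation the TSS at −300 bp held 79.7, 79.0 and 83.0% (adjusted p = 4.26e-16, edgeR). The level of the near TSS went from 0.332, 0.331 and 0.290 to 84.2, 94.3 and 109 CPM. Both nearer start sites have a TGACGT within 250 bases and the far one has none, as the 160 bases around each peak show, with the cores in capitals.

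The stretches run from 150 bases before each peak to 10 from it.
SPCC569.09 start site at −1245 bp (chrIII:2412859-2413018, plus strand): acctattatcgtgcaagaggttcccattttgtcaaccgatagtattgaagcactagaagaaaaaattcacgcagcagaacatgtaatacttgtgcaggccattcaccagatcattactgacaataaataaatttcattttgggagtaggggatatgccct
SPCC569.09 start site at −467 bp (chrIII:2413637-2413796, plus strand): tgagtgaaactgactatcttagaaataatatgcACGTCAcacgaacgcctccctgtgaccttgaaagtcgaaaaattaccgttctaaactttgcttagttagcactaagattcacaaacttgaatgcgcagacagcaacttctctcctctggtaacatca
SPCC569.09 start site at −300 bp (chrIII:2413804-2413963, plus strand): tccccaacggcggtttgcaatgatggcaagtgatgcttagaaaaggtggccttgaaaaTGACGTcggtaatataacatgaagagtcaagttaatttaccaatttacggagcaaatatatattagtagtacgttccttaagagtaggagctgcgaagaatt

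lsd90 gained at −893 bp, from 2.72, 1.49 and 1.21 CPM in EMM to 42.5, 64.5 and 68.6 CPM in starvation and from 6.83, 3.70 and 5.84 in YES to 496, 332 and 339 CPM in heat. Its other main cluster, with a peak 1059 bp after the coding start, lost share. cum1 used a TSS at −89 bp for 3.70, 4.94 and 3.83% of its tags in EMM and 57.1, 56.1 and 67.5% in starvation, and for 44.3, 41.1 and 47.3% in YES and 86.4, 87.3 and 82.7% in heat. No TGACGT stood before either of its peaks.

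mag2 gained share at −29 bp, whose peak has TTACGTAA 54 bp before it, and lost it at a site 106 bp inside the coding region, whose window of 250 bases reaches the same TTACGTAA. The upstream site went from 31.0, 39.5 and 29.4% in EMM to 69.0, 79.7 and 74.1% in starvation, and after H2O2 it held 79.0, 79.7 and 82.9%. The H2O2 call of mag2 was lost without the third YES library (adjusted p = 0.153, edgeR). SPAC22A12.17c, annotated as a dehydrogenase, moved to the TSS at −159 bp, with 49.3, 44.3 and 38.4% in YES, 93.8, 92.3 and 92.7% in heat and 82.3, 81.1 and 80.6% after H2O2.

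SPCPB16A4.06c moved to −800 bp, which held 16.7, 38.1 and 28.2% in YES and 89.6, 90.0 and 82.5% in heat, and 82.4, 87.5 and 92.3% of its EMM tags lay at −965 bp. SPAC4H3.08 lost share at −488 bp in heat, from 85.3, 86.9 and 85.5% to 41.5, 28.0 and 48.0%. tgd1 in starvation started mostly at a site 466 bp inside its coding region, with 79.2% in mean against 23.5% in EMM, where that site held only 0.332, 0.551 and 0.435 CPM, near the floor.

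Of the TSSs tested in these genes, 14 had TGACGT within 250 bases before their peak. Of these 14, a gain of share was seen in 11 in starvation, 10 in heat and 9 after H2O2, against 19, 20 and 21 of the 49 without it. With 100 bases, 7 TSSs had the core, and 6, 5 and 4 of them gained, against 24, 25 and 26 of 56. Shares within a gene sum to a fixed total and windows of neighbouring TSSs overlap, so these counts were not tested, and both windows were chosen after seeing the data.

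**Figure D5:**
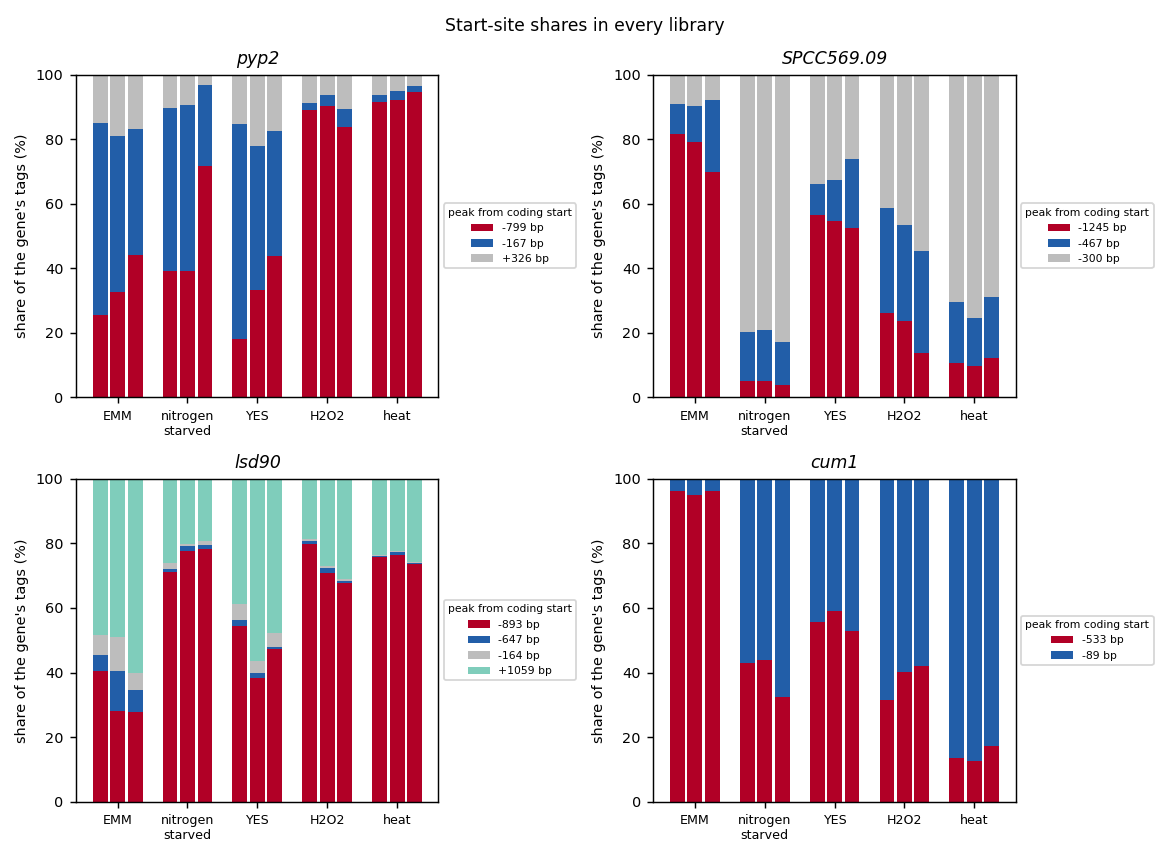
Stacked bars give the share of the tags of a gene (y axis, percent) at each of its start sites in each of the 15 libraries (x axis, by group), coloured by the distance of the peak from the coding start in bp. The −799 bp site of pyp2 holds 83.7% or more in each short-stress library, and the −1245 bp site of SPCC569.09 holds 5.00% or less in each starved one.

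The 89 genes lay near chromosome ends more often than coding genes as a whole, by count: 10 (11.2%) lay within 100 kb of an end, against 123 of 4921 coding genes (2.50%). These were mel1, pcm2, SPAC977.13c, eno102, SPBPB21E7.11, tgd1, SPCC569.09, ecl1, hsp3101 and ctt1, and no test was made. In 7 of 4918 neighbouring pairs of coding genes both were among the 89, and these pairs involved 13 genes. wwm3, wwm2 and ntp1 follow each other on 1 strand, and pcm2 and mel1 diverge from peaks 772 bp apart. The other pairs were tps3 with SPACUNK4.15, SPAC688.03c with gst3, SPAC4H3.03c with SPAC4H3.04c, and tam13 with mug147.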

How the data were processed

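Start-site tags were measured by CAGE in 15 libraries, 3 cultures for each of 5 groups. The submitters' processing notes name CASAVA 1.6, Bowtie 0.12.7 and the build ASM294v2, and the clustering of tags and the counting are not given in the sources used here. The deposited tables hold unnormalized tag counts, 1 table by gene and 1 by TSS cluster. The deposited cluster list also has a score for each cluster, which was not used, while its peak positions were. The members and gene lists were chosen with earlier results of these data known, and roles were given by hand after values were seen.

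CPM used the column sums. Differences were fitted on the counts of all 5886 genes and all 15 libraries with edgeR 4.0.16 (quasi-likelihood test, TMM factors, filterByExpr, Benjamini-Hochberg adjustment, threshold 0.05) under R 4.3.3, and shares of tags per TSS with diffSpliceDGE. Both were tested on simulated data. DESeq2 1.42.0, library totals, a replicate block, a minimum change and leaving out each library were alternatives. The p-values measure the spread between cultures. Shares have 95% Wilson intervals, which like the floor of 3 tags cover counting error only.

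Clusters were tied to genes by matching sums of counts, for 5875 of 5886 genes and all 89 members. The genome used was ASM294v3 from RefSeq, and 85.1% of the 13003 cluster peaks stood on its pyrimidine-purine step, against 3.92% and 3.63% for shifted positions. Symbols and products matched for 5830 genes. Strand was taken from the clusters, and none of the 89 had a near copy of its first 30 bases with up to 2 mismatches.

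The genes named were, by rule, the 10 with the largest smallest fold, the 10 most abundant, the 5 on each side of the limit, the 6 with the largest change in each direction of a comparison, those in the lists and the 4 with the largest share change in each stress. Other genes were named for their role or for 1 library after their values were seen.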

Additional observations from a re-analysis of the deposited data

Results flagged for a closer look

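The starvation response and the mean of the heat and H2O2 responses differed in 51 of the 89 genes by a test of the difference itself (edgeR, all 15 libraries, TMM scaling), a share of 57.3% beside 58.0% of all genes. Of the 51, 14 were higher and 37 lower, and with library totals alone 50 were called, 29 higher and 21 lower. The contrast combines the folds that chose the genes. The 12 genes named for it are given here by their log2 difference, starvation minus the mean of the short stresses.

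The difference was 6.06 for pil2, 3.47 for mel1, 3.21 for SPCC569.09, 3.05 for SPAC11D3.01c, 2.93 for zym1 and 2.89 for isp6, so that starvation gave the larger response. It was −3.33 for ctt1, −3.02 for ssa1, −2.76 for rds1, −2.55 for SPBC11C11.06c, −2.41 for ssd2 and −1.92 for ecl1, so that the short stresses gave the larger one. Starvation also differed in medium and length, and these cannot be told apart.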

How the results depend on the processing

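When edgeR was asked for changes beyond 1 log2 unit, it called 19 of the 89 in heat against H2O2 and 8 in EMM against YES. It called 52 in starvation, 76 in heat, 53 after H2O2 and 21 for the difference between responses. Over all 5886 genes it called 309, 176, 1438, 494, 183 and 1179 in the same order. The stress comparisons and the difference between responses involve the folds that chose the genes, so nothing is read from those counts. With TSSs of at least 20% of the tags, usage calls were 11 in starvation, 12 in heat and 10 after H2O2. That limit also changes which genes can be tested, and their number and the share over all genes are not given here. A loss of calls and fewer testable genes therefore cannot be told apart. A fold limit of 1.5 gave 209 genes and 3 gave 40. CPM with TMM factors gave 73 genes, 68 of them among the 89. In 100 bases before the annotated start, GAANNTTC stood in 2.25% of the 89 and 3.76% of coding genes, and TATAAA in 24.7% and 18.9%. In 100 bases before the CAGE peak TATAAA stood in 24.7% and 18.7%. The order for TATAAA depends on the window, since in 250 bases before the peak it stood in 38.2% and 43.7%. None of these shares was tested.

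Leaving out each library gave 84 to 94 genes by the rule. Calls among the 89 then ranged from 46 to 55 in heat against H2O2 and 23 to 27 in EMM against YES. They ranged from 83 to 89 in starvation, 86 to 88 in heat and 80 to 86 after H2O2. For the difference between responses they ranged from 45 to 53. Over all 5886 genes the comparisons of heat with H2O2 and of the media gave 1203 to 1474 and 528 to 720. The stresses in turn gave 3754 to 3991, 2129 to 2209 and 913 to 1068, and the difference between responses 3136 to 3469. Usage calls ranged from 17 to 19 in starvation, 18 to 20 in heat and 13 to 15 after H2O2. The shares over all genes tested for usage are not given here, so nothing is read from these ranges. For the single genes named, no log2 difference or share change turned sign, and 23 alternative fits lost the call and 589 kept it. The median of the 89 for the difference between responses did turn, from −0.41 to 0.13 with library totals alone.

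The replicate numbers were not taken to pair the cultures. Of 30 correlations between libraries of the same number in different groups, from −0.51 to 0.64, 10 were over 0.1. Libraries of different numbers were not compared, so this check cannot show whether the cultures were paired. With the replicate block, 53 of the 89 were called in heat against H2O2, 30 in EMM against YES and 49 for the difference between responses. Over all 5886 genes these calls were 1522, 716 and 3300. The filter on low counts removed no gene. The comparison of responses needs all 15 libraries, so no smaller fit was made.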
